A study of Rattus norvegicus with 15 samples.

Results

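The genes described here make, activate, inactivate or sense steroid hormones within a tissue. They are Star, Cyp11a1, Cyp17a1 and Cyp19a1 (synthesis), Hsd11b1, Hsd11b2 and Hsd17b2 (activation and inactivation), and Nr3c1, Nr3c2 and Nr5a2 (receptors). Every non-control probe whose gene name in the array files was 1 of these 10 symbols was taken, which gave 14 of the 41012 probes and 10 of the 17337 named genes, and each probe was followed apart because probes of 1 gene can differ. Of the 14 probes, 11 probes of 7 genes were well above background on all arrays of at least 1 group and could be tested. The other 3, for Star, Cyp11a1 and Cyp19a1, could not.

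Intestinal RNA of 15 male rats was measured, 5 rats to a group and an array for each rat. The Goto-Kakizaki (GK) strain consists of nonobese animals with inherited type 2 diabetes that were bred from Wistar stock, so the strains differ in more than glycemia. GK-S-30 rats underwent Roux-en-Y gastric bypass (RYGB) at 16 wk of age with a Roux limb (RL) of 30 cm, the piece of intestine that takes food straight from the stomach pouch without bile, and the RL was sampled. GK-Sham-PF rats were operated on at the same age, with the intestine cut 16 cm past the ligament of Treitz and rejoined without rearrangement, and were pair-fed, and Wistar rats had no operation. In both, the segment corresponding to the RL was sampled, so a sham operation and pair-feeding separate GK-Sham-PF from Wistar rats along with the strain. Tissue was taken 14 wk after the operation, after an overnight fast. The methods name no separation of the intestinal wall into layers, and blood or tissue steroids were not analysed here.

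Steroid hormones start from cholesterol, which StAR carries into mitochondria and CYP11A1 cleaves to pregnenolone. CYP17A1 then opens the way to androgens and, in species that make it, cortisol, and CYP19A1 turns androgens into estrogens. Intestinal epithelium can make glucocorticoids of its own, and the nuclear receptor LRH-1 (Nr5a2) drives that synthesis in the crypts. Target cells also set their own exposure: 11β-HSD1 regenerates active corticosterone, 11β-HSD2 inactivates it and so keeps the mineralocorticoid receptor (Nr3c2) open to aldosterone, and 17β-HSD2 inactivates estradiol and testosterone.

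Signals are log2 values after quantile normalization, which gives every array the same distribution, and each comparison is a difference of group means on that scale. A probe passed at a Benjamini-Hochberg adjusted p under 0.05 in limma, adjusted over all 17028 tested probes. The share of probes well above background ran from 66.72% to 74.76% per array, and no spot was saturated. Before normalization the other 13 arrays were all brighter than a pair of them, replicate 3 of the Wistar and replicate 5 of the GK-Sham-PF rats. The groups were spread unevenly over 4 slides. Of the Wistar arrays 4 were on slide A and 1 was on slide B, of the GK-Sham-PF arrays 3 were on slide B and 2 on slide C, and of the GK-S-30 arrays 2 were on slide C and 3 on slide D, so no slide compares Wistar with GK-S-30 directly. The labels name the animals of a group only by number, so the spread within a group is the spread between rats and their arrays.

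The sequences of 3 member probes are shown here, because these are the letters on which the Hsd17b2 and Nr5a2 values rest and because the Nr3c2 probe shown did not pass where the other Nr3c2 probe did. All are 60 bases long and written 5′ to 3′, with the positions of the array's own annotation on rn4. No annotation of exons or coding parts was used here: the Nr5a2 and Nr3c2 probes were placed in coding sequence by the known ends and domains of these receptors, and of the Hsd17b2 probe it can be said only that 2 of its reading frames hold no stop. In the Nr5a2 probe the capitals mark the stop codon of its frame.
Hsd17b2 A_44_P374638, chr19:47729628-47729687, minus strand: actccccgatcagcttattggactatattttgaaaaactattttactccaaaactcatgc
Nr5a2 A_43_P12110, chr13:49931750-49931809, minus strand: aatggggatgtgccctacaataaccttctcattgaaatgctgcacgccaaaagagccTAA
Nr3c2 A_44_P158441, chr19:32587188-32587247, minus strand: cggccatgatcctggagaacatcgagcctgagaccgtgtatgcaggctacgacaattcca

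Across the members, the differences were small and few passed. Between GK-Sham-PF and Wistar rats 0 of 11 probes passed in limma (3 at an unadjusted p under 0.05, and 0 by the methods' Tukey comparison), where 7.88% of all tested probes passed, and in 0 of 11 did the arrays of the groups not overlap, as for 9.06% of all tested probes. In GK-S-30 versus GK-Sham-PF rats 1 of 11 passed, Hsd17b2, against 8.36% of all tested probes. Between GK-S-30 and Wistar rats 3 of 11 passed, with Cyp17a1 and Hsd11b2 lower and the brighter Nr3c2 probe higher, against 24.1% of all tested probes. The members thus passed about as often as probes in general, and their count is not a result about them. The median difference of the 11 probes was 0.06, −0.05 and 0.03 on the log2 scale in the 3 pairs, beside 0.01, −0.02 and −0.01 over all tested probes.

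**Figure D1:**
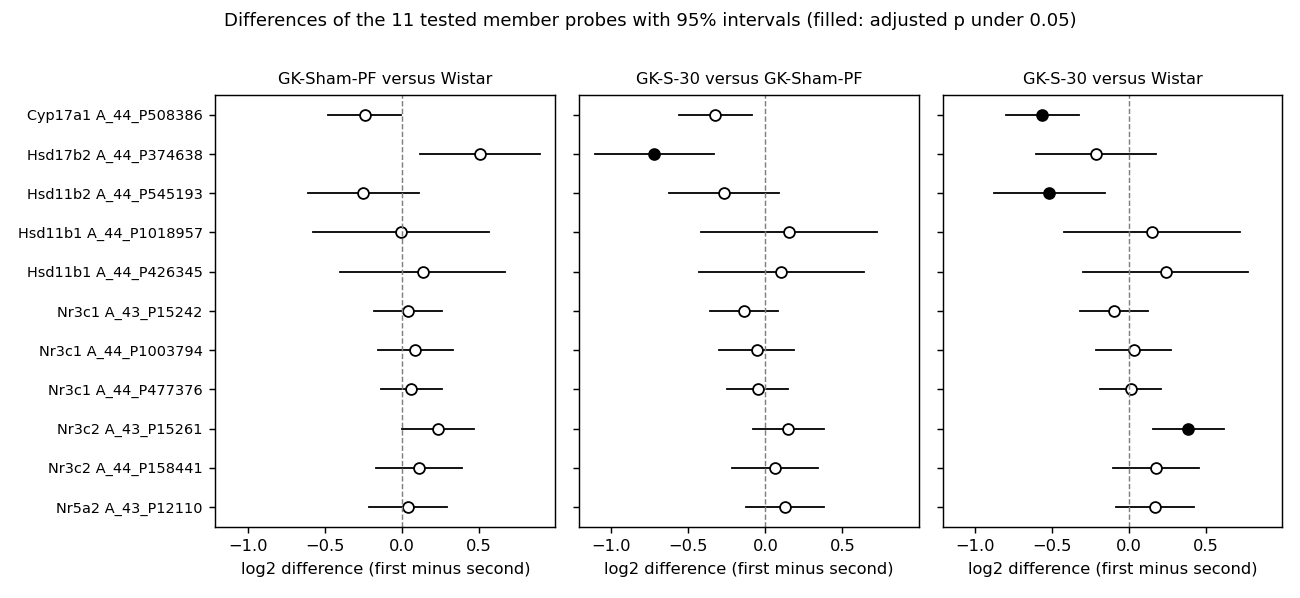
Differences of the 11 tested member probes in the 3 pairs of groups, on the log2 scale (first group minus second), with 95% intervals; filled circles passed at an adjusted p under 0.05. Of the 33 differences, 4 passed: Hsd17b2 in GK-S-30 versus GK-Sham-PF (−0.72), and Cyp17a1 (−0.56), Hsd11b2 (−0.52) and 1 Nr3c2 probe (0.39) in GK-S-30 versus Wistar.

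Of the synthesis genes, Cyp11a1 and Cyp19a1 lay under the limit of detection, and Star at its edge. Cyp11a1, the side-chain cleavage enzyme that commits cholesterol to steroids, was well above background on 0 of 15 arrays. Its log2 signal ran from 1.19 to 2.82, which was 0.60 to 2.33 below the dimmest well-measured probe of the same array. Cyp19a1 (aromatase) was likewise well above background on 0 of 15 arrays, with log2 signals from 1.39 to 1.99. Neither signal gives a level for the gene in any group. In limma without the filter on dim probes, no difference of Cyp11a1 (adjusted p at least 0.324) or Cyp19a1 (adjusted p at least 0.363) passed, which compares values none of which is well above background.

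Star, which delivers cholesterol to the side-chain cleavage enzyme, sat at the edge of detection. Its probe was well above background on 12 of 15 arrays, 4 in each group, and the missing arrays were Wistar replicate 3, GK-Sham-PF replicate 5 and GK-S-30 replicate 2. The log2 signals were 4.23, 4.41, 3.09, 4.27 and 4.14 in Wistar replicates 1 to 5, 4.04, 4.26, 4.04, 3.81 and 3.43 in GK-Sham-PF, and 4.05, 3.16, 4.17, 3.80 and 3.94 in GK-S-30. The 3 ranges lay over each other. The probe was printed as 10 spots on each array, whose log2 signals had a median SD of 0.24 within an array (0.13 to 0.55). Without the filter on dim probes the Star difference was −0.11 for GK-Sham-PF versus Wistar (adjusted p = 0.914), −0.09 for GK-S-30 versus GK-Sham-PF (adjusted p = 0.891) and −0.20 for GK-S-30 versus Wistar (adjusted p = 0.644).

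**Figure D2:**
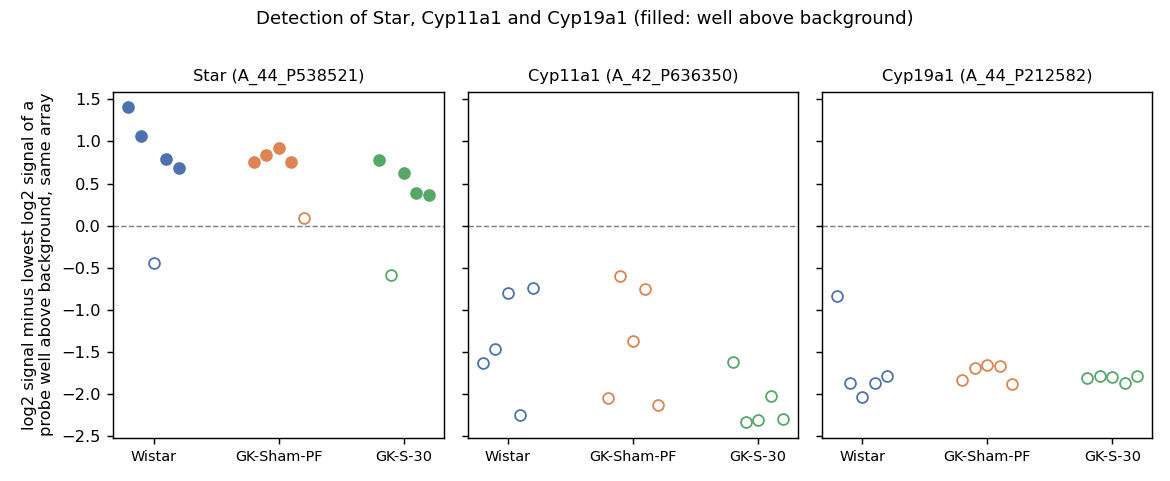
Log2 signal of Star, Cyp11a1 and Cyp19a1 on each array, minus the lowest log2 signal of any probe well above background on that array (dashed line at 0), with filled circles for arrays on which the probe itself was well above background. Star was measured on 4 arrays of each group, and Cyp11a1 and Cyp19a1 lay under the line on all 15.

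Cyp17a1, the 17α-hydroxylase and 17,20-lyase, stood in contrast to these as a bright probe on every array (A_44_P508386, chr1:251965532-251965591 on rn4). Its log2 signals in Wistar replicates 1 to 5 were 15.29, 14.86, 14.82, 15.12 and 14.93. In GK-Sham-PF rats they were 14.80, 14.87, 14.76, 14.77 and 14.63, and in GK-S-30 rats 14.12, 14.56, 14.49, 14.49 and 14.55. The levels therefore ran from Wistar down to GK-Sham-PF and further down to GK-S-30, with GK-Sham-PF reaching into the lower Wistar values and every GK-S-30 array below every array of the other groups.

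Cyp17a1 was 0.677-fold in GK-S-30 relative to Wistar rats, a log2 difference of −0.56 (SE 0.11, 95% interval −0.80 to −0.33, adjusted p = 0.00185 in limma). It was the only tested member probe whose arrays did not overlap in that pair, as was so for 18.3% of all tested probes. Against GK-Sham-PF the difference was −0.32 (0.799-fold, adjusted p = 0.0892), which did not pass in limma although no array overlapped, as for 8.41% of all tested probes. By the methods' Tukey comparison, which is not adjusted over probes, it passed. Between GK-Sham-PF and Wistar it was −0.24 (0.848-fold, adjusted p = 0.249), so the fall between the ends was made of a pair of steps that did not pass singly. On slide B the 3 GK-Sham-PF arrays lay 0.48 below the 1 Wistar array, and on slide C the 2 GK-S-30 arrays lay 0.36 below the 2 GK-Sham-PF arrays. Leaving out any 1 array kept the GK-S-30 versus Wistar difference between −0.61 and −0.48, with adjusted p at most 0.00637, while slide as a fixed block moved it to −0.84 (adjusted p = 0.124).

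Intestinal wall holds several cell types, and marker genes of some of them differed between the groups. Smooth muscle markers rose for 5 of 8 genes in GK-S-30 versus GK-Sham-PF and for 6 of 8 versus Wistar, where 4.77% and 11.9% of all tested probes rose, and their summed signal was 94630 to 120200 in GK-S-30 against 25310 to 58250 in GK-Sham-PF and 29100 to 51400 in Wistar. All 8 were well above background on every array. Fibroblast markers were higher for 4 of 6 genes in both pairs (summed signal 24190 to 27190 against 18250 to 23520 and 18380 to 27020). The others, Pdgfra (−0.35 and −0.26) and Dcn (−0.06 and −0.13), lay lower in both pairs without passing. Of 6 epithelial markers none passed in any pair in limma (0, 1 and 1 at an unadjusted p under 0.05), and their mean log2 signal lay between 14.56 and 15.09 on all arrays. Enterocyte markers had a summed signal of 534400 to 667700 in GK-S-30, below every Wistar array (670300 to 758300) and overlapping GK-Sham-PF (620200 to 700600), with 1 of 5 genes, Fabp2, lower versus Wistar (0.825-fold, adjusted p = 0.016). Of 6 leukocyte markers 1 rose and 1 fell in GK-Sham-PF versus Wistar. In GK-S-30, 1 fell versus GK-Sham-PF, and 3 fell and 1 rose versus Wistar. Their summed signals were 2024 to 2533 in GK-S-30, 2538 to 3222 in GK-Sham-PF and 2344 to 3820 in Wistar. Of 6 pancreatic acinar markers 1 to 3 were well above background per array. Among the 3 tested, 1 rose in GK-Sham-PF versus Wistar, 1 fell in GK-S-30 versus GK-Sham-PF, and 2 rose and 1 fell in GK-S-30 versus Wistar. Of these 2 rises 1 was Prss1, which was well above background on 10 of 15 arrays. Only GK-S-30 had it on all arrays, so it was tested only through the group in which it was high. Leukocyte and acinar markers thus also differed between the groups without bypass. Of 4 tested crypt markers 1 fell in each GK group versus Wistar, and of 5 enteroendocrine markers 1 rose in each GK-S-30 pair. No tested adipocyte or gastric marker passed in limma. Of all tested probes 4.14% fell and 3.74% rose in GK-Sham-PF versus Wistar. In GK-S-30, 3.59% fell versus GK-Sham-PF and 12.2% versus Wistar. The part of the marker shifts in the Cyp17a1, Hsd17b2, Hsd11b2 and Nr3c2 results was not tested. In whole tissue, fewer cells that make a transcript and less transcript per cell cannot be told apart.

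Genes that define adrenal and gonadal steroid cells gave little signal. Mc2r, the corticotropin receptor, and Nr5a1, the factor that specifies steroid glands, were well above background on 0 of 15 arrays, Cyp11b1 and Cyp21a1 on 1 array each and Cyp11b2 on 2. Of the 7 markers the remaining ones, Insl3 and Hsd3b1, were measured on 15 and 14 arrays, and both fell in GK-S-30 versus Wistar rats (0.749-fold, adjusted p = 0.0214, and 0.592-fold, adjusted p = 0.0167). Of all tested probes 12.2% fell in that pair. Hsd3b1 was near the limit of detection in GK-S-30, with a mean log2 signal of 3.80. It was not well above background on GK-S-30 replicate 2, so its fold is uncertain. The summed signal of the 7 was 137.8 to 189.6 (Wistar), 141.1 to 165.7 (GK-Sham-PF) and 109.8 to 150.1 (GK-S-30).

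**Figure D3:**
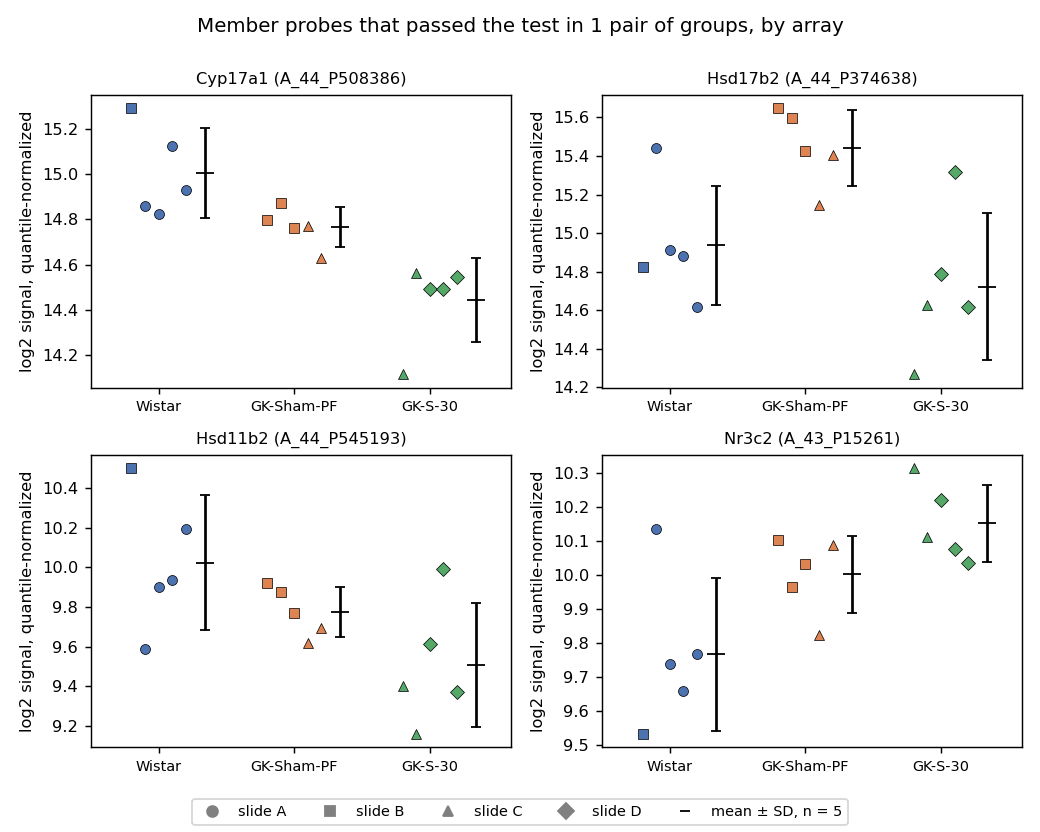
Log2 signal of the 4 member probes that passed in 1 pair of groups, 1 point per array with the shape giving its slide and the bar giving the mean ± SD of 5 arrays; each panel has its own axis, which does not start at 0. All GK-S-30 arrays lie under all others for Cyp17a1, whereas single arrays cross between groups for Hsd17b2 (GK-S-30 replicate 4, 15.32), Hsd11b2 (GK-S-30 replicate 4, 9.99) and Nr3c2 (Wistar replicate 2, 10.14).

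Hsd17b2, which oxidizes estradiol and testosterone to their weak forms in epithelia such as intestine, was the one member that passed between bypassed and sham-operated GK rats. Its log2 signals were 14.83, 15.44, 14.91, 14.88 and 14.62 in Wistar replicates 1 to 5. In GK-Sham-PF rats they were 15.65, 15.60, 15.42, 15.15 and 15.40, and in GK-S-30 rats 14.27, 14.63, 14.79, 15.32 and 14.62. GK-Sham-PF arrays were the highest, with Wistar replicate 2 and GK-S-30 replicate 4 reaching into their range, and the Wistar and GK-S-30 arrays were mixed.

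Relative to GK-Sham-PF, Hsd17b2 was 0.607-fold in GK-S-30 rats (log2 difference −0.72, SE 0.18, 95% interval −1.11 to −0.33, adjusted p = 0.0239 in limma). The GK-Sham-PF versus Wistar difference was 0.51 (1.42-fold, 95% interval 0.12 to 0.90) and did not pass (adjusted p = 0.116), and the GK-S-30 versus Wistar difference was −0.21 (95% interval −0.60 to 0.17, adjusted p = 0.429). On slide C alone the GK-S-30 arrays lay 0.83 below the GK-Sham-PF arrays (14.45 against 15.28), and on slide B the GK-Sham-PF arrays lay 0.73 above the Wistar array.

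The Hsd17b2 call rested on few arrays. In limma it was lost without GK-Sham-PF replicate 1 (adjusted p = 0.0612), GK-Sham-PF replicate 2 (0.0592), GK-S-30 replicate 1 (0.0576) or GK-S-30 replicate 5 (0.0562), with the difference between −0.87 and −0.61 in all 15 such fits, and with slide as a fixed block (−0.83, adjusted p = 0.146). Without Wistar replicate 2, whose 15.44 was the highest Wistar value, the GK-Sham-PF versus Wistar difference rose to 0.63 and passed (adjusted p = 0.0414).

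Of the 2 enzymes that interconvert active and inactive glucocorticoid, Hsd11b2 passed in 1 pair and Hsd11b1 in none. Hsd11b2, the inactivating enzyme known from aldosterone target epithelia, had log2 signals of 10.50, 9.59, 9.90, 9.93 and 10.19 in Wistar replicates 1 to 5. In GK-Sham-PF rats they were 9.92, 9.87, 9.77, 9.62 and 9.69, and in GK-S-30 rats 9.40, 9.16, 9.61, 9.99 and 9.37. The groups stepped down in the same order as Cyp17a1 but overlapped, with Wistar replicate 2 under all GK-Sham-PF arrays and GK-S-30 replicate 4 above them.

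Hsd11b2 was 0.699-fold in GK-S-30 relative to Wistar rats (log2 difference −0.52, SE 0.17, 95% interval −0.87 to −0.16, adjusted p = 0.0362 in limma). The steps between them were −0.25 from Wistar to GK-Sham-PF (adjusted p = 0.471) and −0.27 from GK-Sham-PF to GK-S-30 (adjusted p = 0.384). Within slide B the first step was −0.65 and within slide C the second was −0.38. The call was lost in limma without any 1 of 6 arrays: Wistar replicates 1 (adjusted p = 0.0945), 4 (0.0516) and 5 (0.0817) and GK-S-30 replicates 1 (0.0735), 2 (0.0851) and 5 (0.0784). It was also lost when only the 2 groups were fitted (adjusted p = 0.0737), without the filter on dim probes (0.0512) and with slide as a fixed block (−1.02, adjusted p = 0.167). With Tukey p-values adjusted over all probes it was lost too (adjusted p = 0.132). The call was lost in 12 of 30 other settings.

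Hsd11b1, which regenerates corticosterone from its inactive keto form, was measured on all arrays by a pair of probes 254 bases apart, and neither passed in any pair. The brighter probe (A_44_P426345) had log2 signals of 8.19, 7.92, 8.14, 7.78 and 8.15 in Wistar replicates 1 to 5. In GK-Sham-PF rats they were 8.31, 8.35, 8.35, 8.25 and 7.58, and in GK-S-30 rats 8.73, 7.18, 8.75, 8.23 and 8.48. In GK-S-30, 4 of 5 arrays were above every Wistar array, while replicate 2 was the lowest of all 15, and in GK-Sham-PF the dimmer array, replicate 5, was the lowest.

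The second Hsd11b1 probe (A_44_P1018957) showed the same arrays low, at 5.95 in GK-S-30 replicate 2 and 6.56 in GK-Sham-PF replicate 5, and over the 15 arrays the probes had a Pearson r of 0.96 (Spearman rho 0.84). GK-S-30 versus Wistar differed by 0.24 for the brighter probe (95% interval −0.30 to 0.77, adjusted p = 0.532) and by 0.15 for the other (95% interval −0.42 to 0.72, adjusted p = 0.736). The result turned on GK-S-30 replicate 2: without it the brighter probe's difference was 0.51 and passed in limma (adjusted p = 0.0411), whereas the other did not (0.45, adjusted p = 0.0658). Without that array and the 2 dimmer ones, a setting chosen after the values were seen, both passed (0.54, adjusted p = 0.00862, and 0.53, adjusted p = 0.0117). GK-S-30 replicate 2 was also among the 3 arrays on which Star was not well above background and had the lowest share of probes well above background (66.72%).

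**Figure D4:**
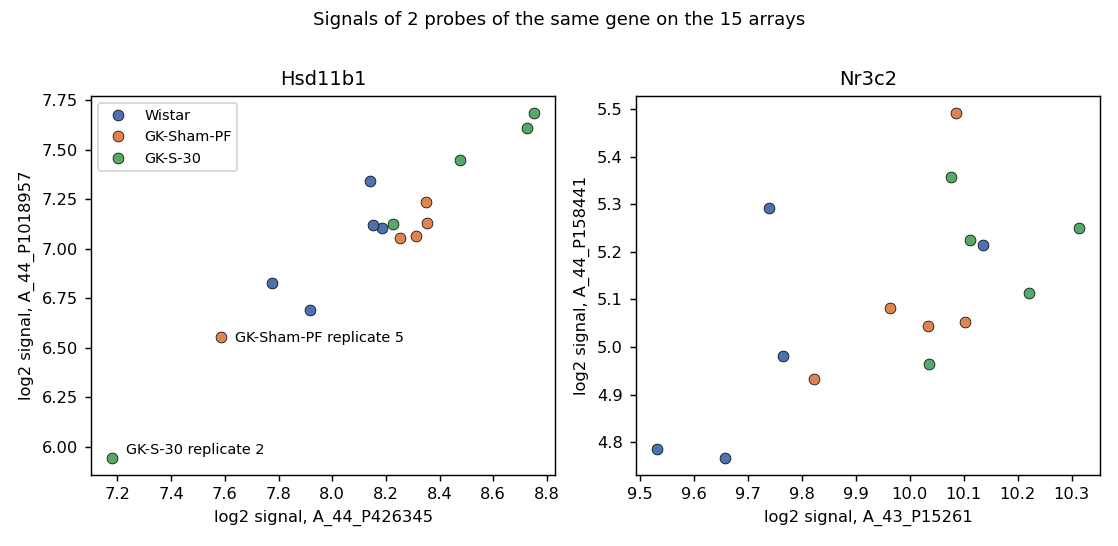
Log2 signals of the 2 probes of Hsd11b1 (left) and of Nr3c2 (right) on the 15 arrays, coloured by group; the axes do not start at 0. The Hsd11b1 probes fall near 1 line (r = 0.96) with GK-S-30 replicate 2 and GK-Sham-PF replicate 5 at its lower end, and the Nr3c2 probes scatter more (r = 0.62).

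Among the receptors, no probe of the glucocorticoid receptor Nr3c1 passed in any pair. Its 3 probes lie within 367 bases of each other and were well above background on all arrays. Log2 signals ran from 9.01 to 9.51 for A_43_P15242, from 6.73 to 7.36 for A_44_P1003794 and from 9.61 to 9.98 for A_44_P477376. All 9 differences lay between −0.14 and 0.09, and their 95% intervals reached no further than −0.36 and 0.33. The first probe was printed as 10 spots, with a median SD of 0.042 between spots of an array, so spot noise was small beside the SDs of 0.10 to 0.18 between rats. The probes followed each other only in part, with r of 0.71, 0.29 and 0.68 over 15 arrays.

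The mineralocorticoid receptor Nr3c2 was the only member with a rise that passed. For A_43_P15261 the log2 signals were 9.53, 10.14, 9.74, 9.66 and 9.77 in Wistar replicates 1 to 5. In GK-Sham-PF rats they were 10.10, 9.96, 10.03, 9.82 and 10.09, and in GK-S-30 rats 10.31, 10.11, 10.22, 10.08 and 10.04. Apart from Wistar replicate 2, every Wistar array lay below every array of both GK groups, and the GK groups overlapped.

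Nr3c2 by this probe was 1.31-fold in GK-S-30 relative to Wistar rats (log2 difference 0.39, SE 0.11, 95% interval 0.15 to 0.62, adjusted p = 0.0183 in limma). GK-Sham-PF exceeded Wistar by 0.23 (95% interval 0.00 to 0.47, adjusted p = 0.248) and GK-S-30 exceeded GK-Sham-PF by 0.15 (adjusted p = 0.468). Without Wistar replicate 1, the lowest array, the difference was 0.33 and missed the threshold (adjusted p = 0.0528), and with slide as a fixed block it was 0.76 (adjusted p = 0.201).

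The other Nr3c2 probe, A_44_P158441, whose sequence is given above, did not pass. It lies 2890 bases upstream in the transcript and 59178 bases away in the genome, and its log2 signals of 4.77 to 5.49 were 1.29 to 2.16 above the dimmest well-measured probe of the same array. The differences were 0.11 (GK-Sham-PF versus Wistar), 0.06 (GK-S-30 versus GK-Sham-PF) and 0.17 (GK-S-30 versus Wistar, 95% interval −0.10 to 0.45, adjusted p = 0.362). They had the same sign as those of the bright probe, and the intervals of the probes overlapped, so the rise of Nr3c2 rests on 1 of 2 probes.

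Nr5a2 (LRH-1), measured by the probe that ends at the stop codon, had log2 signals of 7.98 to 8.41 in Wistar, 8.01 to 8.45 in GK-Sham-PF and 8.13 to 8.57 in GK-S-30 rats. The ranges lay over each other. GK-S-30 differed from Wistar by 0.17 (95% interval −0.09 to 0.42, adjusted p = 0.334) and from GK-Sham-PF by 0.13 (95% interval −0.13 to 0.38, adjusted p = 0.592), and GK-Sham-PF from Wistar by 0.04 (adjusted p = 0.908).

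Single arrays crossed between groups for several members at once. Wistar replicate 2 had the highest Wistar value of Hsd17b2 and Nr3c2 and the lowest of Hsd11b2, and GK-S-30 replicate 4 had the highest GK-S-30 value of Hsd17b2 and Hsd11b2. With slide as a fixed block none of the 4 member calls remained, and of all tested probes 268 in place of 4101 passed between GK-S-30 and Wistar rats, a pair that this fit can only link through GK-Sham-PF arrays on slides B and C. With slide as a random block all 4 member calls remained.

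The probes whose pattern over the 15 arrays was most like that of each of these 4 were looked up among all tested probes, as a description. For Cyp17a1 they were Pdk2, a pyruvate dehydrogenase kinase (r = 0.95), Pnpla7, a lysophospholipase (0.94), and Cdc5l, a splicing factor (0.93). For Nr3c2 they were Cxadr, a junctional adhesion protein (0.94), Homer1 (0.91) and LOC500420 (0.89), for Hsd11b2 Rabl6 (0.90), Slc25a45 (0.87) and Ifi44 (0.87), and for Hsd17b2 Prlr, the prolactin receptor (0.87), Ppp1cc (0.87) and Wipf3 (0.85). After the group means were removed the 12 values of r were still between 0.74 and 0.88. Of these, Pdk2 fell in all 3 pairs: by 0.83 from Wistar to GK-Sham-PF (adjusted p = 0.00826), by 0.66 from GK-Sham-PF to GK-S-30 (adjusted p = 0.0333) and by 1.48 from Wistar to GK-S-30 (adjusted p = 2.83e-05). These arrays share their slides and normalization, and the best of 17028 probes are high by selection.

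Around the members, other genes of steroid synthesis moved in both directions. Of 12 tested genes of that list, 2 rose and 1 fell in GK-Sham-PF versus Wistar, 2 rose and 0 fell in GK-S-30 versus GK-Sham-PF, and 4 rose and 3 fell in GK-S-30 versus Wistar, with median differences of −0.05, −0.01 and −0.04. Of all tested probes, 3.74%, 4.77% and 11.9% were higher and 4.14%, 3.59% and 12.2% lower in these pairs. Stard4, a cytosolic sterol carrier, rose by 0.89 on the log2 scale from Wistar to GK-Sham-PF (adjusted p = 0.000161) and by a further 0.53 to GK-S-30 (adjusted p = 0.0144), 2.67-fold in all (adjusted p = 7.58e-07), and Hsd17b7, which also acts in cholesterol synthesis, was 2.24-fold in GK-S-30 relative to GK-Sham-PF (adjusted p = 0.00303).

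Tspo, a cholesterol-binding protein of the outer mitochondrial membrane, was 1.46-fold in the sham group and 1.39-fold in GK-S-30 relative to Wistar (adjusted p = 0.00555 and 0.00611). Hsd17b1, which makes estradiol from estrone, was 0.596-fold in GK-Sham-PF (adjusted p = 0.00419) and 0.624-fold in GK-S-30 (adjusted p = 0.00362). Its arrays did not overlap with Wistar in either pair. Among the partners that supply electrons to steroid enzymes, Fdx1, Fdxr, Por and Cyb5a were well above background on all arrays and none passed.

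Among enzymes that reduce or inactivate steroids, all but 1 of the calls were falls. Of 12 tested, 0 rose and 3 fell in GK-Sham-PF versus Wistar, 0 rose and 1 fell in GK-S-30 versus GK-Sham-PF, and 1 rose and 4 fell in GK-S-30 versus Wistar, with medians of −0.03, −0.18 and −0.38. Of all tested probes, 3.74%, 4.77% and 11.9% rose and 4.14%, 3.59% and 12.2% fell in these pairs. Srd5a1, a 5α-reductase, fell by 0.65 from Wistar to GK-Sham-PF (adjusted p = 0.0166) and by 0.64 from there to GK-S-30 (adjusted p = 0.0196), and was 0.408-fold at the end of both steps (adjusted p = 2.91e-05). Hsd17b6, a 3α- and 17β-dehydrogenase, was 0.42-fold in the sham group and 0.426-fold in GK-S-30 relative to Wistar (adjusted p = 4.48e-05 and 3.09e-05), with every Wistar array above every GK array. Hsd17b11 was lower too, at 0.73-fold (adjusted p = 0.0214, lost in 5 of 15 fits that left out 1 array, with adjusted p up to 0.0606) and 0.664-fold (adjusted p = 0.00155), and Srd5a2, the other 5α-reductase, was 1.61-fold in GK-S-30 relative to Wistar (adjusted p = 0.0131).

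Of 11 tested receptors and partners, 1 passed in GK-Sham-PF versus Wistar and 0 in the other pairs in limma (4 and 1 at an unadjusted p under 0.05). That one was Esr2 (adjusted p = 0.0487), whose call was lost in 20 of 29 other settings. Its dim probe was well above background on 5 of 5 GK-Sham-PF arrays, 2 of 5 Wistar and 1 of 5 GK-S-30, so it was tested only through the group in which it was high, and no fold is given. Esr1, the other estrogen receptor, was well above background on 0 of 15 arrays.

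Genes known to respond to glucocorticoids were followed as a list of 18 tested. Of these, 2 rose and 0 fell in GK-Sham-PF versus Wistar, 0 rose and 5 fell in GK-S-30 versus GK-Sham-PF, and 0 rose and 3 fell in GK-S-30 versus Wistar, with medians of 0.07, −0.31 and −0.24. Over all tested probes 3.74% rose in the first of these pairs. In the second 3.59% fell and in the last 12.2%, so the 3 of 18 that fell versus Wistar lie near the share of all probes. The metallothioneins, which also respond to zinc, moved most: Mt2A was 0.266-fold (adjusted p = 0.00232) and Mt1 0.318-fold (adjusted p = 0.002) in GK-S-30 relative to GK-Sham-PF, and Mt2A was 2.33-fold in GK-Sham-PF relative to Wistar (adjusted p = 0.0305, lost in 9 of 30 other settings). Angptl4, which also responds to fasting, was 0.459-fold relative to GK-Sham-PF (adjusted p = 0.0218, lost in 8 of 30). Nfkbia rose by 0.60 on the log2 scale from Wistar to GK-Sham-PF (adjusted p = 0.00153) and was 0.777-fold in GK-S-30 relative to GK-Sham-PF (adjusted p = 0.044, lost in 17 of 30). Unlike Mt2A and Nfkbia, Tsc22d3 lay lower in GK-Sham-PF than in Wistar (−0.59), which did not pass (adjusted p = 0.126 in limma). It was 0.537-fold in GK-S-30 relative to Wistar (adjusted p = 0.00757). Fkbp5, Sgk1 and Per1 passed in no pair.

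Of 9 tested genes known from aldosterone action, 1 rose in GK-Sham-PF versus Wistar, 1 rose in GK-S-30 versus GK-Sham-PF and 2 rose in GK-S-30 versus Wistar, and 0 fell, with medians of 0.00, −0.10 and −0.12, so the medians lay at or below 0 while the calls were rises. Of all tested probes, 3.74%, 4.77% and 11.9% rose and 4.14%, 3.59% and 12.2% fell in these pairs. Scnn1a, the α subunit of the epithelial sodium channel, was 1.44-fold in GK-S-30 relative to GK-Sham-PF (adjusted p = 0.011) and 1.61-fold relative to Wistar (adjusted p = 0.000519). Scnn1g, the γ subunit, passed in GK-Sham-PF versus Wistar (adjusted p = 0.00241), with log2 signals of 4.49 to 4.82 against 2.85 to 3.85. It was well above background on 5 of 5 GK-Sham-PF arrays, 2 of 5 Wistar and 3 of 5 GK-S-30, so it was tested only through the group in which it was high, and no fold is given. Scnn1g was also 1 of the 2 rises in GK-S-30 versus Wistar (adjusted p = 0.0398 in limma). In that pair neither group had it well above background on all arrays.

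Of 9 genes known to respond to LRH-1, 0 were higher in any pair, and 1, 2 and 3 were lower in the 3 pairs, with medians of −0.13, −0.39 and −0.30. Of all tested probes, 3.74%, 4.77% and 11.9% were higher and 4.14%, 3.59% and 12.2% lower in these pairs. Nr0b2 (SHP), a corepressor that is also induced by the bile acid receptor, was 0.191-fold in GK-S-30 relative to GK-Sham-PF (adjusted p = 0.00351) and 0.139-fold relative to Wistar (adjusted p = 0.000231). Scarb1, the lipoprotein receptor that supplies cholesterol to steroid cells, was 0.459-fold in GK-Sham-PF relative to Wistar (adjusted p = 0.00236) and 0.308-fold in GK-S-30 (adjusted p = 3.12e-05), and the step between the GK groups did not pass (−0.58, adjusted p = 0.104). The receptor itself, Nr5a2, did not pass in any pair.

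**Figure D5:**
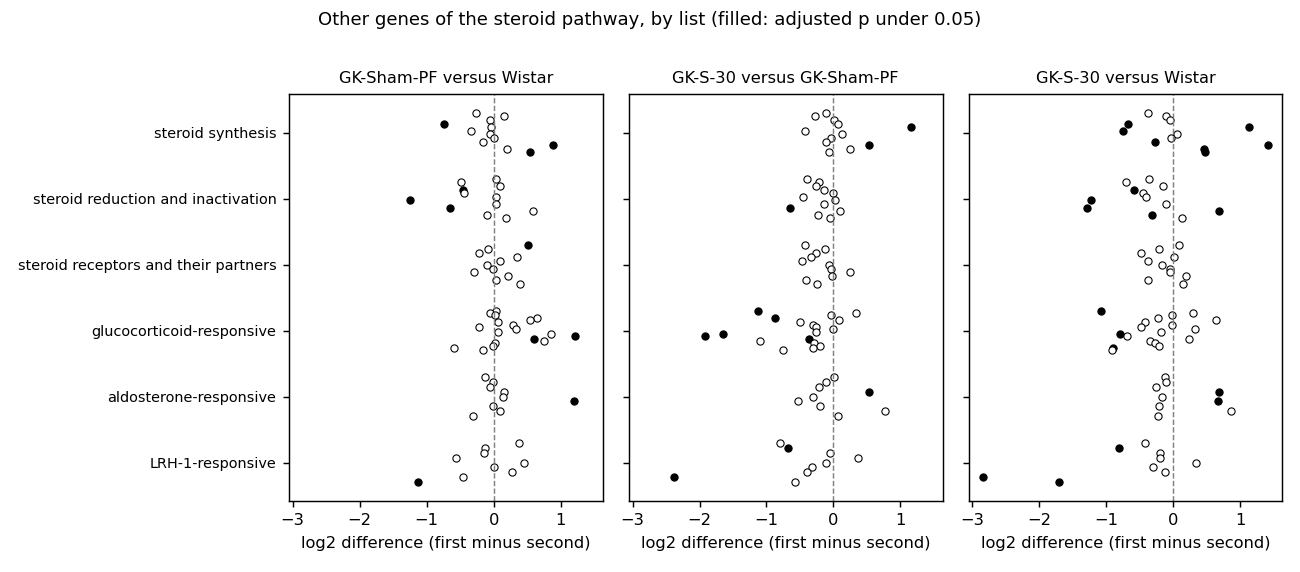
Log2 differences of the tested genes of 6 steroid-related lists in the 3 pairs of groups (first group minus second), 1 circle per gene and filled where the adjusted p was under 0.05. Filled circles lie on the left for the glucocorticoid-responsive list in GK-S-30 versus GK-Sham-PF (5 of 18) and for the LRH-1-responsive list in GK-S-30 versus Wistar (3 of 9), with Nr0b2 farthest at −2.84. Of all tested probes 3.59% and 12.2% fell in these pairs.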

How the data were processed

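Agilent rat arrays were read in 1 colour, with a separate array for each of the 15 RNA samples. Per the labels, spots were read with Feature Extraction 10.7 (10.7.3.1 in the file headers). The authors deposited the intensity of each spot (processed signal, with background subtracted by that software) and, for the whole series, log2 values after quantile normalization.

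Here, control spots and the 1337 spots marked as outliers were left out, replicate spots were averaged by probe, and the log2 processed signals were quantile-normalized (limma 3.58.1, R 4.3.3; the R package data.table, version 1.17.8, and matplotlib 3.10.9 for reading and figures). Named probes well above background on all arrays of at least 1 group were fitted in 1 limma model over the 15 arrays without covariates. Symbols were updated from RefSeq names, and probe sequences and rn4 positions are those of the array files. For genes of the lists the brightest of the tested probes was used. Named genes are all members, up to 4 genes per list and pair that passed without overlap between arrays, and the 3 most alike probes of each passing member. Fabp2, Insl3, Hsd3b1, Prss1, Pdgfra, Dcn, Tsc22d3, Fkbp5, Sgk1, Per1 and genes given only by their detection are named beyond that rule, after their values were seen. Members and lists (steroid and responsive genes, and epithelial, enterocyte, crypt, enteroendocrine, smooth muscle, fibroblast, leukocyte, adipocyte, gastric, pancreatic acinar and steroid cell markers) were chosen with earlier results of these data known. The alternatives were other normalizations and filters, slide and replicate blocks, the methods' Tukey comparison and leaving out each array. The fit was checked on simulated data. The number of arrays, 5 per group, limits the precision.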

Additional observations from a re-analysis of the deposited data

Results flagged for a closer look

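In 7 of 42 sets of 5 arrays (14 probes in 3 groups), 1 array stood apart by Dixon's test, where chance gives about 1 in 20. For Cyp17a1 it was GK-S-30 replicate 1, at a log2 signal of 14.12 where the other 4 were 14.49 to 14.56. GK-Sham-PF replicate 5, 1 of the dimmer arrays, gave 4 of the 7: it was low for both Hsd11b1 probes (6.56 against 7.06 to 7.24, and 7.58 against 8.25 to 8.35) and for the Nr3c1 probe A_44_P477376 (9.66 against 9.82 to 9.87), and high for the dim Nr3c2 probe (5.49 against 4.93 to 5.08). Wistar replicate 3, the other dimmer array, was low for Star (3.09 against 4.14 to 4.41). For Cyp19a1 it was GK-Sham-PF replicate 2 (1.73 against 1.39 to 1.46), where no array was well above background.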

How the results depend on the processing

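Over 30 other settings none of the 4 member calls changed sign, and 4 of the 29 other member differences passed under at least 1 setting. Between GK-Sham-PF and Wistar 0 member probes passed in every setting, except 1 without Wistar replicate 2 (range 0 to 1 when leaving out each array). In GK-S-30 versus GK-Sham-PF the count of 1 fell to 0 with slide as a fixed block, with Tukey p-values adjusted over all probes, and without the 2 dimmer arrays and GK-S-30 replicate 2 together (a setting added after the data were seen), rose to 2 by the methods' Tukey comparison (Cyp17a1 added), and ranged from 0 to 1 when each array was left out. With a replicate block it also fell to 0 (Hsd17b2, adjusted p = 0.0519), and between GK-S-30 and Wistar the replicate block left 2 of 3 (Hsd11b2 lost, adjusted p = 0.0555). Same-numbered arrays of different groups correlated between −0.29 and 0.20 after removing group means, so the numbers do not pair the rats. Between GK-S-30 and Wistar the count of 3 fell to 0 with slide as a fixed block, ranged from 1 to 3 when each array was left out, and was 2 to 4 otherwise. Of 30 values of the list genes named, none reversed, but 24 no longer passed with slide as a fixed block and 9 with Tukey p-values adjusted over all probes. Scaling to the 75th percentile, normexp background correction or the authors' matrix moved no member call. Cyp11a1 and Cyp19a1 were not well above background on any array, so no difference in them was detectable.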
